A study of Homo sapiens with 120 samples.

Results

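The miR-548 family is a group of primate-specific microRNAs (miRNAs), short RNAs that guide Argonaute (Ago) proteins to messenger RNAs. Members were taken by name: every mature miRNA called miR-548 followed by a letter, with 1 row kept where a name had several rows that differed only by a locus suffix. This gave 81 of the 2652 mature miRNA names, and 49 of the 81 had at least 1 read in the 96 libraries analysed. No measured value was used to choose the members, other than the larger sum among rows of the same name.

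Members of this family are encoded in copies of MADE1, a short palindromic DNA transposon whose transcripts fold back into hairpins. Drosha and then Dicer cut such hairpins into a short duplex, and 1 strand of it is kept by an Ago protein. Positions 2 to 8 of the kept strand, the seed, pair with target messenger RNAs, so that members with the same seed share predicted targets.

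The sequences below are those of the members that carry most of the reads or on which the comparisons turn, grouped by seed. They are the mature sequences of RefSeq on GRCh38.p14, written 5′ to 3′ with the seed in capitals. Of the 81 members, 55 were matched by name in that table, 38 of them with reads, and the matched members held 94.93% of the family's reads. miR-548h-5p and miR-548e-3p were not matched.
miR-548f-3p: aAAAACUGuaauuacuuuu
miR-548bc: aAAAACUGugauuacuuuugc
miR-548ar-3p: uAAAACUGcaguuauuuuugc
miR-548k: aAAAGUACuugcggauuuugcu
miR-548av-5p: aAAAGUACuugcggauuu
miR-548l: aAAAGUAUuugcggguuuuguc
miR-548j-5p: aAAAGUAAuugcggucuuuggu
miR-548y: aAAAGUAAucacuguuuuugcc
miR-548ab: aAAAGUAAuuguggauuuugcu
miR-548b-5p: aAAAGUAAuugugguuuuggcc
miR-548n: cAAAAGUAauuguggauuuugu
miR-548e-5p: cAAAAGCAaucgcgguuuuugc
miR-548o-3p: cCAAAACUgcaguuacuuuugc
miR-548b-3p: cAAGAACCucaguugcuuuugu

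The 55 matched members had 53 distinct sequences and 29 distinct seeds, and 41 of the 55 seeds began with AAA. Reads were concentrated on few seeds; the shares below cover matched members only, so that miR-548h-5p and miR-548e-3p, with 8464 and 6809 reads, are in none of them. The seed AAAACUG of miR-548f-3p, shared with miR-548bc and miR-548ar-3p, held 52.672% of the family's reads. The seed AAAGUAC of miR-548k and miR-548av-5p held 29.055%, and AAAGUAU of miR-548l held 5.004%. Among the matched members the seed AAAGUAA was the most common (11 of them, 8 with reads), and these held 3.656% of the family's reads. The median share of A or U was 64.3% (45.5% to 84.2%) in matched members with reads and 68.2% (61.9% to 81.0%) in those without; the difference was not tested.

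Close sequences limit how reads can be split. miR-548av-5p is the start of miR-548k, so that a shortened miR-548k read could be counted under either name, and miR-548ab lies at an edit distance of 2 from miR-548k and from miR-548n. The mature miR-548f-3p sequence is encoded at 5 loci on GRCh38.p14: MIR548F1 (chr10:54607889-54607907), MIR548F2 (chr2:212426284-212426302), MIR548F3 (chr5:110513844-110513862), MIR548F4 (chr7:147378041-147378059) and MIR548F5 (chrX:32641490-32641508). All 5 copies are on the minus strand and lie within the spans of protein-coding genes (PCDH15, ERBB4, TMEM232, CNTNAP2 and DMD, in that order). The reference table gives gene spans, so whether a copy is exonic or intronic is not stated here. The 5 deposited rows of miR-548f-3p held 160923, 24, 24, 840 and 7 reads, and which row belongs to which locus is not given in the sources used here.

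The other well-read members have mostly single loci. miR-548k lies on the plus strand at chr11:70283986-70284007 within the span of PPFIA1, and miR-548l on the minus strand at chr11:94466545-94466566 within the span of MRE11. miR-548j-5p is at chr22:26555274-26555295 within TPST2, miR-548n at chr7:34940804-34940825 within DPY19L1 and miR-548e-5p at chr10:110988940-110988961 within SHOC2. miR-548b-5p (chr6:119069098-119069119) and miR-548b-3p (chr6:119069062-119069083) are the arms of 1 hairpin within FAM184A. No spanning gene was listed for miR-548y (chr14:47761061-47761082) or miR-548ab (chr3:103524085-103524106).

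The study sequenced small RNAs of HEK293T, a line derived from human embryonic kidney, in total RNA and in Ago pulldowns made by Ago affinity purification by peptides (APP), a method that captures Ago proteins with a peptide ligand. All cells carried a knock-out of PKR, a kinase activated by double-stranded RNA (the parental line is labelled pOSI17 PKR knock-out), and each was mock-treated or transfected with a long double-stranded RNA labelled dsGFPc or dsGFPd. Experiment 1 compared this parental line with lines carrying an additional PACT knock-out, TRBP knock-out, or PACT, TRBP knock-out; both proteins bind Dicer and double-stranded RNA. Experiment 2 compared the parental line with additional Ago2, Ago1/2 and Dicer knock-out lines. Each combination of line, treatment and fraction had 2 libraries, so a line had 6 libraries per fraction, and the labels give 1 line per knock-out genotype and do not say whether replicates were separate cultures. The p-values therefore measure the spread between these libraries, which may be technical, and line and genotype cannot be told apart. Libraries are named below by the genotype on their label, since messenger RNAs of the deleted genes were not analysed here.

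miRNA reads per library ranged from 406198 to 1103613 (total RNA, experiment 1), 2456303 to 13453153 (pulldown, experiment 1), 909703 to 4332218 (total RNA, experiment 2 without the Dicer knock-out) and 1856110 to 7166262 (pulldown, the same lines). The Dicer knock-out libraries were far shallower: their total RNA held 39904 to 181166 reads, and their pulldowns 47308 to 595303. Values below are the deposited normalised counts; 1 read was worth 0.060 to 2.01 of these units in experiment 1, 0.088 to 0.60 in experiment 2 without the Dicer knock-out, and 4.86 to 32.5 in the Dicer knock-out. The summed miR-17, miR-18a, miR-19b, miR-20a and miR-92a level, abundant in this kidney line, was 42524 to 323056 in every library. The summed level of 9 miRNAs that mark liver, muscle, blood or neuronal cells was 7.09 to 175 in experiment 2 without the Dicer knock-out. In the Dicer knock-out it was up to 4659, led by the liver miRNA miR-122-5p. Of the blood cell miRNAs, miR-223-3p was at 0 in all libraries, but others were read. miR-142-5p reached 10.6 in total RNA and 9.73 in pulldown of experiment 1, and 488 and 112 in experiment 2. The highest values of miR-451a and miR-142-3p were 13.2 and 7.01.

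Few members carried the family. Over all libraries it had 305992 reads: 12 members had at least 1000 reads, 11 more had 100 to 999, 26 had 1 to 99, and 32 had none. miR-548f-3p held 160923 reads and miR-548k 88739, together 81.6% of the family, and the 10 best-read members held 97.9%. miR-548l followed with 15312 reads, miR-548h-5p with 8464, miR-548j-5p with 7308, miR-548e-3p with 6809, miR-548n with 5299, miR-548e-5p with 3012, miR-548o-3p with 1918 and miR-548y with 1633. Reads were seen for 42 members in total RNA and 46 in pulldown of experiment 1, and for 38 and 39 in experiment 2; 42 members had reads in both experiments. A member without reads may lie under the depth reached, and the file does not show that it is absent from these cells.

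**Figure D1:**
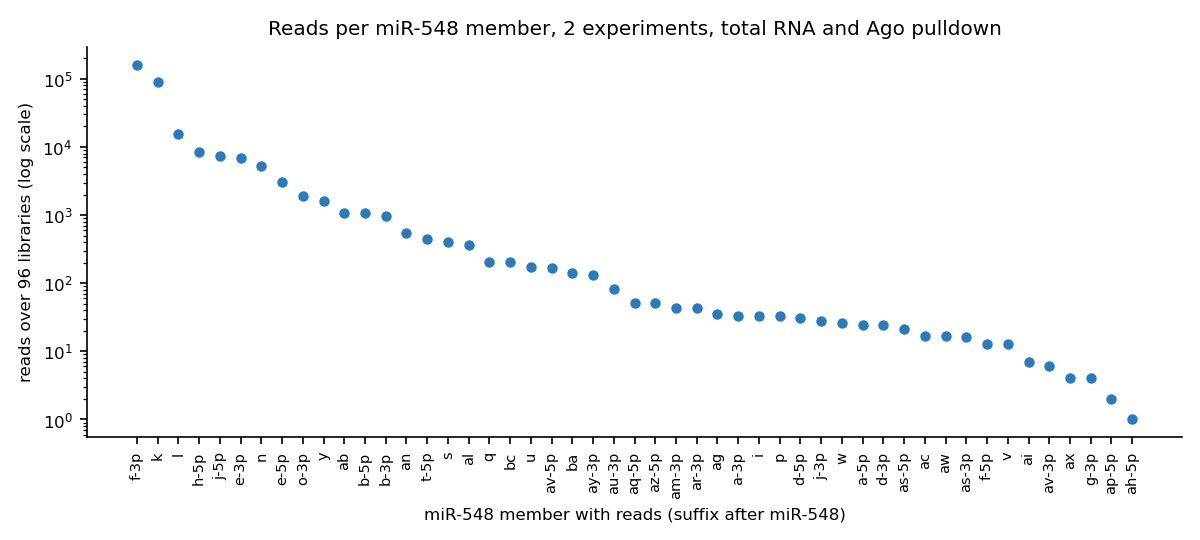
Reads summed over 96 libraries for each of the 49 miR-548 members with reads (vertical axis on a log scale; horizontal axis, the suffix after miR-548, in order of reads). The members span from 1 read to 160923 reads, and miR-548f-3p and miR-548k stand above the others.

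One arm of a hairpin usually dominated: reads came mostly from the 3p arm of miR-548f and from the 5p arms of miR-548h and miR-548j. Both arms of miR-548e were read in parental cells, the 3p arm at a higher level in pulldown of both experiments: the log2 ratio of 5p over 3p (each plus 1) was -1.54 ± 0.87 (SD, n = 6) in experiment 1 and -1.55 ± 0.55 (SD, n = 6) in experiment 2. In total RNA the same ratio was -0.75 ± 1.09 and -0.45 ± 2.22 (SD, n = 6 each), which spans 0.

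The summed family was a small part of the miRNA pool. In parental total RNA it took 0.128% ± 0.021 of miRNA reads in experiment 1 and 0.099% ± 0.023 in experiment 2 (SD, n = 6 each); the parental pulldown values were 0.106% ± 0.020 and 0.096% ± 0.032. In experiment 1 the TRBP knock-out pulldown reached 0.226% ± 0.038. In experiment 2 the lowest values outside the Dicer knock-out were 0.026% ± 0.009 in Ago1/2 knock-out total RNA and 0.0166% ± 0.0075 in Ago2 knock-out pulldown. These sums rest mostly on miR-548f-3p and miR-548k and are given as a description.

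Differences were tested with limma on log2(value + 1), with Benjamini-Hochberg adjustment over all names tested and a threshold of 0.05; differences are on that scale, where adding 1 shrinks the ratio of low values and single libraries at 0 weigh heavily, so that for low members they can be smaller or larger than the ratio of the means printed. A name was tested where it had at least 10 reads in at least 6 libraries of the fit. This left 9 of the 81 members in total RNA and 16 in pulldown of experiment 1, and 12 and 15 in experiment 2.

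Experiment 1 asks what the Dicer partners PACT and TRBP contribute to small RNAs. One member changed in the TRBP knock-out, miR-548f-3p, the main product of the family. Its level in total RNA (lowest, median and highest of 6 libraries) was 262, 359 and 472 in parental cells, 260, 368 and 448 in the PACT knock-out, 600, 651 and 926 in the TRBP knock-out, and 247, 322 and 369 in the PACT, TRBP knock-out. Every TRBP knock-out library lay above every library of the other 3 lines, and those 3 overlapped. In pulldown the same values were 290, 475 and 641 (parental), 546, 824 and 989 (PACT), 899, 1365 and 1686 (TRBP), and 353, 500 and 654 (PACT, TRBP). The TRBP knock-out and parental libraries again did not overlap.

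Relative to parental cells, miR-548f-3p rose by 0.97 ± 0.13 on the log2 scale in total RNA of the TRBP knock-out (SE; limma adjusted p = 8.76e-07), from 355.5 ± 79.6 to 691 ± 124 (SD, n = 6 each). In pulldown it rose by 1.45 ± 0.19 (SE; limma adjusted p = 1.87e-06), from 485 ± 127 to 1311 ± 286. It was the single member called of 9 tested in total RNA, where 9.48% of all names tested were called higher, and the single one of 16 in pulldown, where 1.34% were. The members' median difference was 0.19 in each fraction; over all names it was 0.02 (total RNA) and -0.04 (pulldown). The line carrying both knock-outs did not show the rise: miR-548f-3p was 318 ± 46 in total RNA and 502 ± 113 in pulldown, which differed from parental by -0.14 (limma adjusted p = 0.55) and 0.06 (limma adjusted p = 0.95). Set against the TRBP knock-out itself, the PACT, TRBP knock-out was lower by a log2 difference of -1.11 in total RNA (limma adjusted p = 2.75e-08) and -1.38 in pulldown (limma adjusted p = 4.08e-06). These comparisons share the TRBP or the parental libraries. Both calls against parental cells held without any 1 library, with log2 differences of 0.88 to 1.05 (total RNA) and 1.26 to 1.56 (pulldown). The summed level of the 9 markers of other cell types was 26.2 ± 7.8 in TRBP knock-out total RNA and 42.4 ± 8.1 in parental. In pulldown it was 35.8 to 56.1 against 43.9 to 89.3. Of the blood cell markers, miR-223-3p was at 0 in all of them. Over experiment 1, miR-142-5p was at 0 in 10 of 24 total RNA and 2 of 24 pulldown libraries. The part of these markers in the result was not tested.

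The remaining members showed no call in the TRBP knock-out. miR-548k, the second most read member, was 454 ± 62 in parental, 446 ± 52 in PACT knock-out, 476 ± 72 in TRBP knock-out and 392 ± 33 in PACT, TRBP knock-out total RNA (SD, n = 6 each). miR-548f-3p took 49.3% of the family's summed level in TRBP knock-out total RNA, against 34.2%, 34.99% and 34.4% in the parental, PACT and double lines. In pulldown its share was 70.7%, against 51.7%, 59.7% and 50.8%. miR-548e-5p in TRBP knock-out pulldown was 14.5 ± 6.0 against 6.47 ± 2.81 in parental, a log2 difference of 1.09 that missed the threshold (limma adjusted p = 0.077). miR-548h-5p was 39.5 ± 4.2 against 26.8 ± 5.2 (limma adjusted p = 0.20). With every library scaled to the same sum, a second member was called in TRBP knock-out pulldown, and so it was without the TRBP knock-out dsGFPc pulldown replicate 1. Of all calls in this comparison 33.3% were higher as deposited and 53.7% with equal sums.

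**Figure D2:**
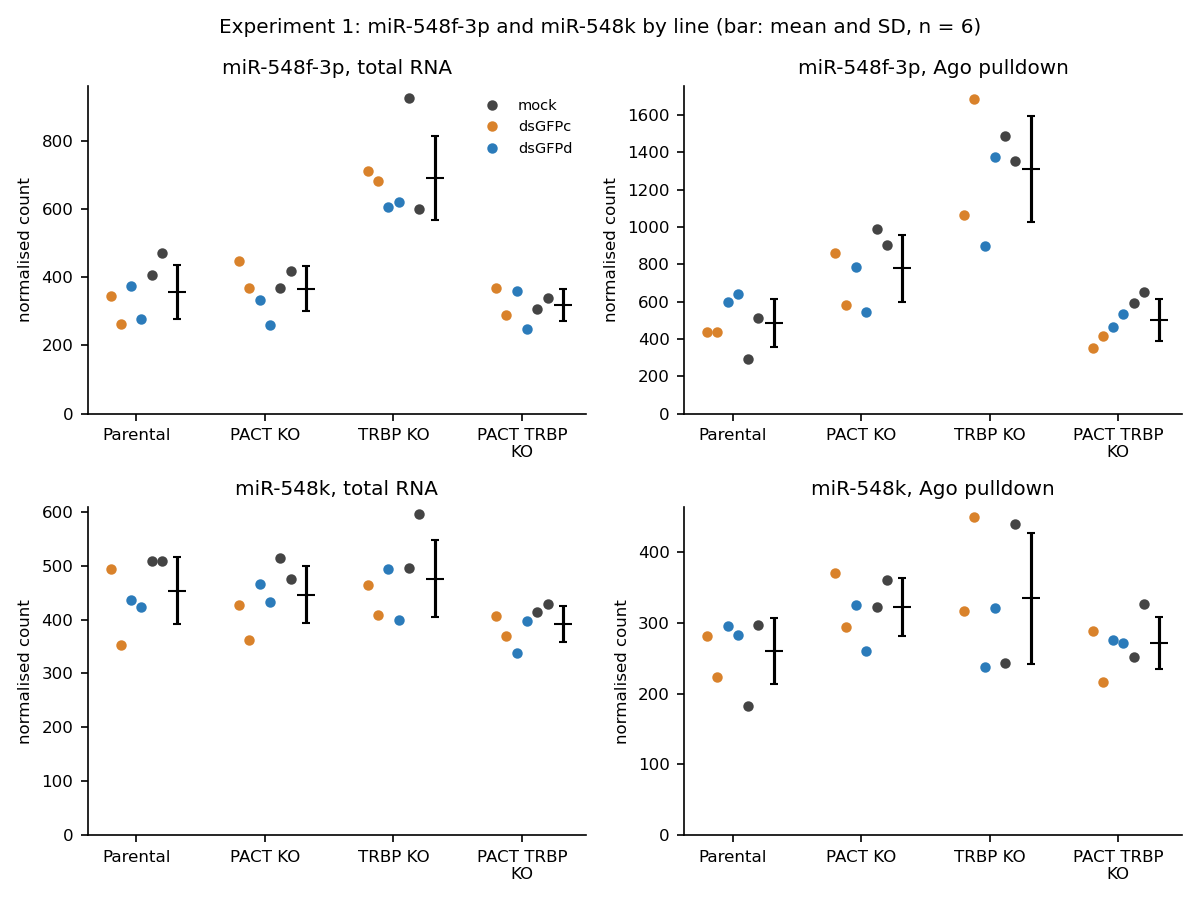
Normalised counts of miR-548f-3p and miR-548k in experiment 1 by line, in total RNA and in Ago pulldown; points are libraries coloured by transfection, bars are the mean and SD of 6. miR-548f-3p in the TRBP knock-out lies above every parental library in both fractions (600 to 926 against 262 to 472 in total RNA), while miR-548k overlaps between the lines.

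The PACT knock-out alone gave no called member, of 9 in total RNA (1.42% of all names were called) and of 16 in pulldown (0% of 897 names, with 31 names at an unadjusted p under 0.05 in limma). Of the members, 0 in total RNA and 1 in pulldown had an unadjusted p under 0.05, and edgeR called 0. In pulldown miR-548f-3p was 777 ± 179 against 485 ± 127, a log2 difference of 0.69 ± 0.19 (SE; limma adjusted p = 0.21), and the groups overlapped. The double knock-out against parental cells gave no called member in limma or edgeR, where 14% of names were called in total RNA and 2.34% in pulldown, and 1 and 2 members had an unadjusted p under 0.05; 1 member was called in total RNA without the parental dsGFPd replicate 2. Equal sums moved the share of higher calls over all names from 39% to 63.6% in total RNA and from 28.6% to 60% in pulldown, with a shift of the median of all names of 0.11 in each, and for the PACT knock-out in total RNA from 33.3% to 66.7%.

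Between the double knock-out and the TRBP knock-out, miR-548k was also lower in total RNA, by a log2 difference of -0.27 (limma adjusted p = 0.018), which makes 2 of 9 members lower where 18% of all names were. This small difference was lost without the PACT, TRBP knock-out dsGFPd total RNA replicate 1 or the TRBP knock-out mock total RNA replicate 2, with an adjusted p of up to 0.056, and with equal library sums (adjusted p = 0.28). In pulldown only miR-548f-3p of 16 was lower, where 6.69% of names were. Equal sums moved the share of higher calls over all names from 49.7% to 64.1% in total RNA and the median of all names by 0.12.

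Transfection of long double-stranded RNA was tested over all lines of an experiment together. In total RNA of experiment 1, miR-548k was 493 ± 56 in mock-treated cells, 410 ± 50 with dsGFPc and 423 ± 48 with dsGFPd (SD, n = 8 each), with overlap between the groups. It fell by 0.26 with dsGFPc and by 0.22 with dsGFPd on the log2 scale (limma adjusted p = 0.024). It was the 1 member called of 9, where 7.58% of all names were called lower; 8 of the 9 members had a negative difference, and their median was -0.23 against -0.03 over all names. The call was lost without the PACT knock-out mock replicate 1 or the TRBP knock-out mock replicate 2, with an adjusted p of up to 0.072, and without the filter on low values (adjusted p = 0.17). The count of members called became 2 without the PACT, TRBP knock-out dsGFPd replicate 1, the parental dsGFPc replicate 2 or the parental dsGFPd replicate 2. Equal sums moved the share of higher calls over all names from 61% to 46.7%. In pulldown none of 16 members was called in limma, where 11.3% of names were, 2 members had an unadjusted p under 0.05, and edgeR called 0; miR-548l was the nearest, with a log2 difference of -0.61 (adjusted p = 0.087). One member was called in pulldown without the PACT knock-out dsGFPc replicate 1.

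In experiment 2 the same test called none of 12 members in total RNA and none of 15 in pulldown by limma, where 3.49% and 0.4% of all names were called; 1 member in each fraction had an unadjusted p under 0.05, and edgeR called 0. With the replicate block the share of all names called in pulldown was 1.2%, and 0 members were called. miR-548k in total RNA was 188 ± 131 in mock, 118 ± 88 with dsGFPc and 130 ± 111 with dsGFPd (SD, n = 6 each, without the Dicer knock-out). Its mean log2 difference was -0.73 (adjusted p = 0.065). miR-548f-3p in pulldown had a mean difference of -0.90 (adjusted p = 0.40). The members' medians were -0.35 and -0.40, against -0.02 and -0.06 over all names. One member was called in total RNA without the parental dsGFPd replicate 1, and 1 with equal library sums.

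Experiment 2 asks how small RNAs depend on Ago proteins and Dicer. Ago2 is the human Argonaute that can cleave its target, and Ago1 is a close relative that binds the same miRNAs. In total RNA most calls were in the Ago1/2 knock-out (6 of 12 members lower, where 19.7% of all names were) and in pulldown in the Ago2 knock-out (10 of 15 members lower, where 20.5% of all names were lower and 15.5% higher). No member was called higher in either line against parental cells. Of these called members, all 6 in total RNA and 9 of the 10 in pulldown reached 10 reads in at least 6 libraries without the parental ones; miR-548b-3p did not. The summed level of the 9 markers of other cell types in total RNA was 18.6 to 31.5 in parental, 7.09 to 21.8 in Ago2 and 12.7 to 45.5 in Ago1/2 knock-out cells, and in pulldown 24.1 to 81.8, 17.3 to 120 and 14.1 to 175; its part in the results was not tested. In bulk RNA, fewer molecules per cell and a smaller share of cells with the miRNA cannot be told apart.

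miR-548k showed the widest range in normalised counts, while the log2 differences of miR-548l from parental cells, given below, were larger. In total RNA its lowest, median and highest levels were 183, 276 and 352 in parental cells, 98.7, 119 and 210 in the Ago2 knock-out, and 15.8, 31.4 and 51.5 in the Ago1/2 knock-out. The Ago1/2 knock-out libraries all lay below those of the other lines, while the parental and Ago2 ranges overlapped. In pulldown the values were 166, 265 and 362 (parental), 0.60, 36.8 and 66.2 (Ago2) and 59.4, 121 and 155 (Ago1/2). Here the Ago2 knock-out was the low line, and its lowest library, dsGFPd replicate 2, held 1 read.

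miR-548l, the member with the seed AAAGUAU, was read at a lower level. Its total RNA values were 30.2, 49.1 and 79.4 (parental), 6.88, 13.7 and 18.8 (Ago2) and 0, 4.96 and 15.0 (Ago1/2). In pulldown they were 16.6, 53.4 and 113 (parental), 0, 1.78 and 5.62 (Ago2), and 0.32, 11.3 and 16.9 (Ago1/2). In both fractions all parental libraries lay above the Ago2 knock-out libraries, and the 2 knock-out lines overlapped. miR-548f-3p moved less: in total RNA it was 142 ± 36, 121 ± 24 and 59.9 ± 34.7, and in pulldown 203 ± 52, 103 ± 50 and 158 ± 68 (parental, Ago2 and Ago1/2 knock-out; SD, n = 6 each).

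**Figure D3:**
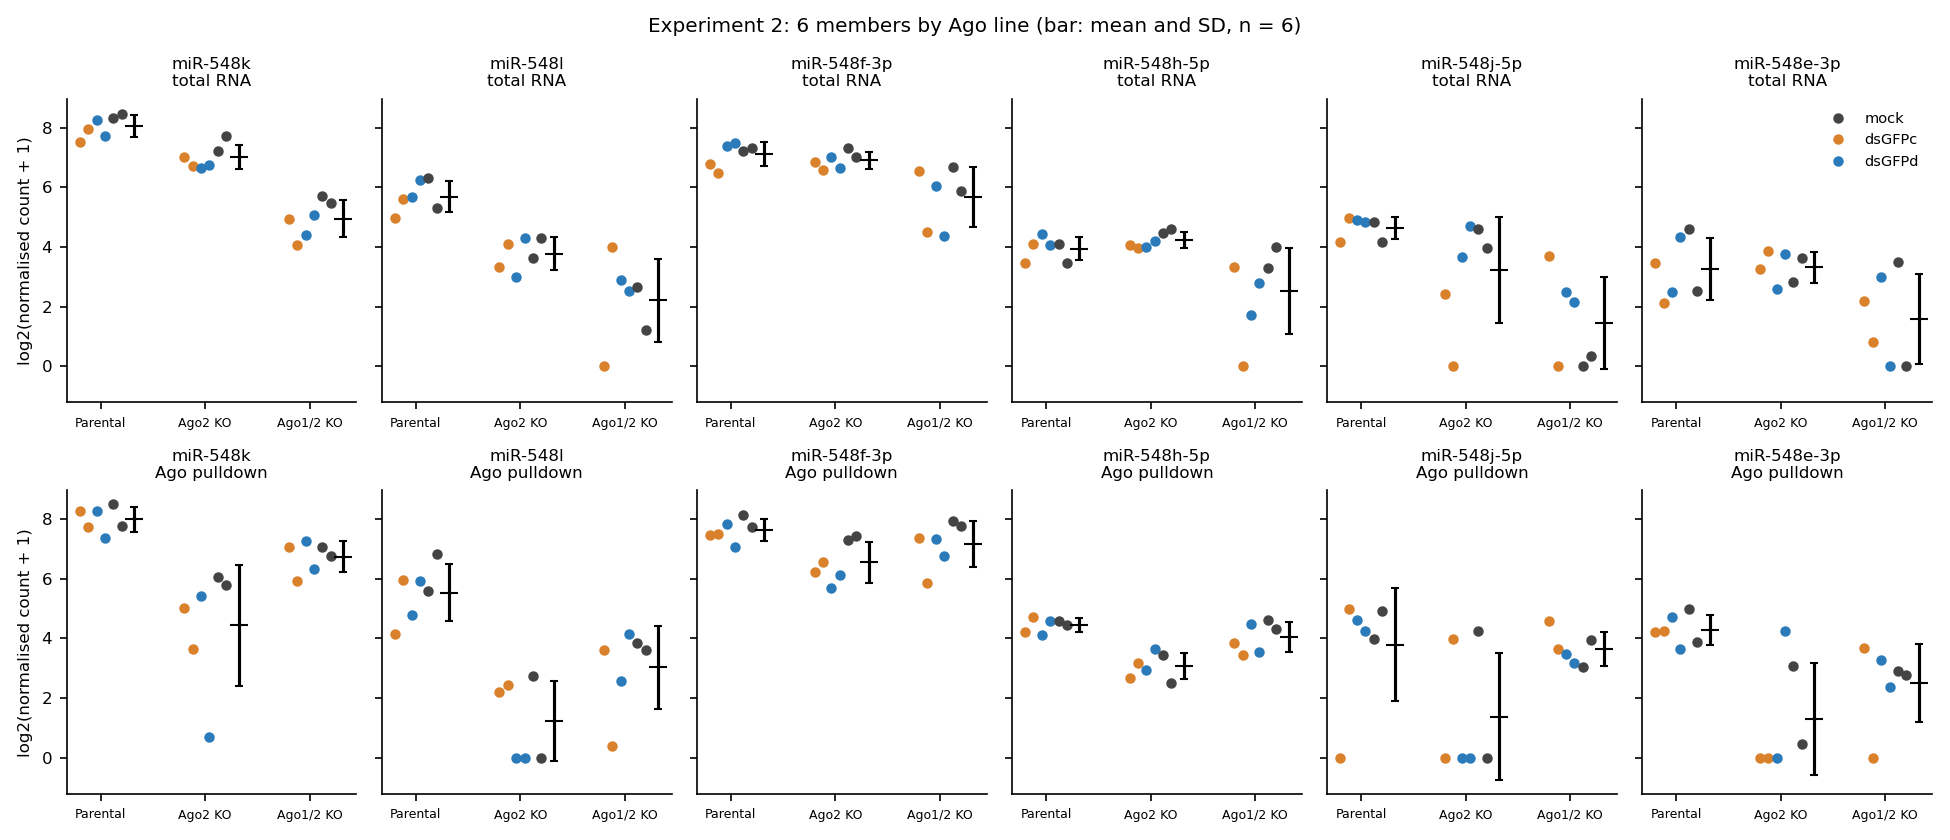
Levels of 6 members in experiment 2 as log2(normalised count + 1) by line, top row in total RNA and bottom row in Ago pulldown; points are libraries coloured by transfection, bars are the mean and SD of 6. miR-548k is lowest in the Ago1/2 knock-out in total RNA (15.8 to 51.5 normalised counts) and lowest in the Ago2 knock-out in pulldown (0.60 to 66.2).

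In total RNA of the Ago2 knock-out, 2 of 12 members were lower than in parental cells, where 5.86% of all names were: miR-548k by a log2 difference of -1.03 ± 0.22 (SE; limma adjusted p = 0.00089) and miR-548l by -1.92 ± 0.53 (SE; limma adjusted p = 0.010). No member was higher, and the members' median was -0.23 against 0.06 over all names. No single library ended either call; without the replicate 1 sets the count was 1. Equal sums moved the median of all names by 0.14.

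In total RNA of the Ago1/2 knock-out, 6 of 12 members were lower, where 19.7% of all names were. miR-548k fell by 3.10 ± 0.22 on the log2 scale (SE; limma adjusted p = 8.9e-12), from 270 ± 67 to 32.3 ± 13.6 (SD, n = 6 each), and miR-548l fell by 3.48 ± 0.53 (SE; limma adjusted p = 5.5e-06). miR-548j-5p went from 24.6 ± 6.2 to 3.37 ± 4.63, a log2 difference of -3.20 (adjusted p = 0.00057), and miR-548f-3p had a difference of -1.44 (adjusted p = 0.00058). miR-548h-5p and miR-548e-3p had differences of -1.41 (adjusted p = 0.028) and -1.68 (adjusted p = 0.043). The members' median was -1.40 against 0.04 over all names. miR-548n was 10.1 ± 6.6 in parental and 15.4 ± 8.2 in the Ago1/2 knock-out, and miR-548y 3.32 ± 2.66 and 2.73 ± 1.10; neither was called. The call of miR-548h-5p was lost without replicate 1 of dsGFPd or replicate 2 of dsGFPc in either line (adjusted p up to 0.083) and in edgeR on the recovered reads (0.091). That of miR-548e-3p was lost without any 1 of 6 libraries (parental mock and dsGFPc replicate 1 and dsGFPd replicate 2; Ago1/2 mock, dsGFPc and dsGFPd replicate 2), with an adjusted p of up to 0.12, and in edgeR (0.15).

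In the Ago2 knock-out pulldown, 10 of 15 members were lower and none higher, where 20.5% of all names were lower and 15.5% higher. With the replicate number as a block, 25.1% of all names were lower and 18.3% higher. The fitted differences of miR-548l (log2 -4.32 ± 0.72 SE; limma adjusted p = 6.5e-05) and miR-548k (log2 -3.56 ± 0.60 SE; limma adjusted p = 8.2e-05) had the smallest adjusted p-values among the members. miR-548l went from 54.1 ± 33.7 to 2.26 ± 2.56, and miR-548k from 264 ± 75 to 34.5 ± 25.1 (SD, n = 6 each). miR-548f-3p was lower by a log2 difference of -1.07 (adjusted p = 0.0096) and miR-548h-5p by -1.38 (adjusted p = 0.016), from 21.0 ± 3.5 to 7.69 ± 2.63. Both arms of miR-548e were lower: the 3p arm from 19.5 ± 7.3 to 4.30 ± 7.33 (log2 -2.99, adjusted p = 0.0038), the 5p arm from 5.94 ± 2.19 to 1.51 ± 2.34 (log2 -1.92, adjusted p = 0.031). miR-548b-3p had 188 reads in the parental pulldowns, at 3.33 ± 1.96, and 0 reads in the Ago2 knock-out. Its fitted log2 difference was -1.99 (limma adjusted p = 0.0044), and it passed the filter only with the parental libraries. Against the level of 3 reads over the group its mean was at least 24.1-fold lower, a bound that covers counting error and not the spread between libraries.

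The other 3 of the 10 were miR-548n (log2 -2.40, adjusted p = 0.020), miR-548o-3p (log2 -1.89, adjusted p = 0.027) and miR-548j-5p (log2 -2.42, adjusted p = 0.044). The members' median was -1.89, also with miR-548b-3p at its bound, against -0.39 over all names, a gap of -1.50. With every library scaled to the same sum, the median of all names moved by -0.44 to -0.82, and the share of higher calls over all names from 43% to 23.9%. Without the replicate 1 sets, 3 libraries per line, the count was 3. edgeR on the recovered reads called 5 of the 15: it did not call miR-548e-3p (adjusted p = 0.096), miR-548n (0.076), miR-548j-5p (0.23), miR-548o-3p (0.24) or miR-548e-5p (0.28). The call of miR-548n was lost without the Ago2 knock-out dsGFPd replicate 2 (0.052). That of miR-548o-3p was lost without the parental mock replicate 1 or the Ago2 knock-out dsGFPc and dsGFPd replicate 1 or mock and dsGFPc replicate 2 (up to 0.066). That of miR-548e-5p was lost without the parental dsGFPc or dsGFPd replicate 1, the Ago2 knock-out dsGFPd replicate 1 or any Ago2 knock-out replicate 2 (up to 0.070). That of miR-548j-5p was lost without any 1 library other than the parental dsGFPc and Ago2 knock-out mock replicate 1 and the Ago2 knock-out dsGFPc replicate 2 (up to 0.11).

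In the Ago1/2 knock-out pulldown, 1 of 15 members was lower than in parental cells, where 2.27% of all names were (4.27% with the replicate number as a block, which pairs these libraries): miR-548l at 9.67 ± 6.00 against 54.1 ± 33.7 (log2 -2.51, limma adjusted p = 0.035). That call was lost without any 1 of 9 of the 12 libraries, those other than the parental dsGFPc replicate 1 and the Ago1/2 knock-out dsGFPc replicate 1 and dsGFPd replicate 2 (adjusted p up to 0.099), and in edgeR (0.15). miR-548k, at 111.5 ± 36.2 against 264 ± 75, had a difference of -1.26 that missed the threshold (adjusted p = 0.28). Of the 15 members, 4 had an unadjusted p under 0.05. The members' median was -0.87 against -0.07 over all names, and 14 of 15 differences were negative.

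**Figure D4:**
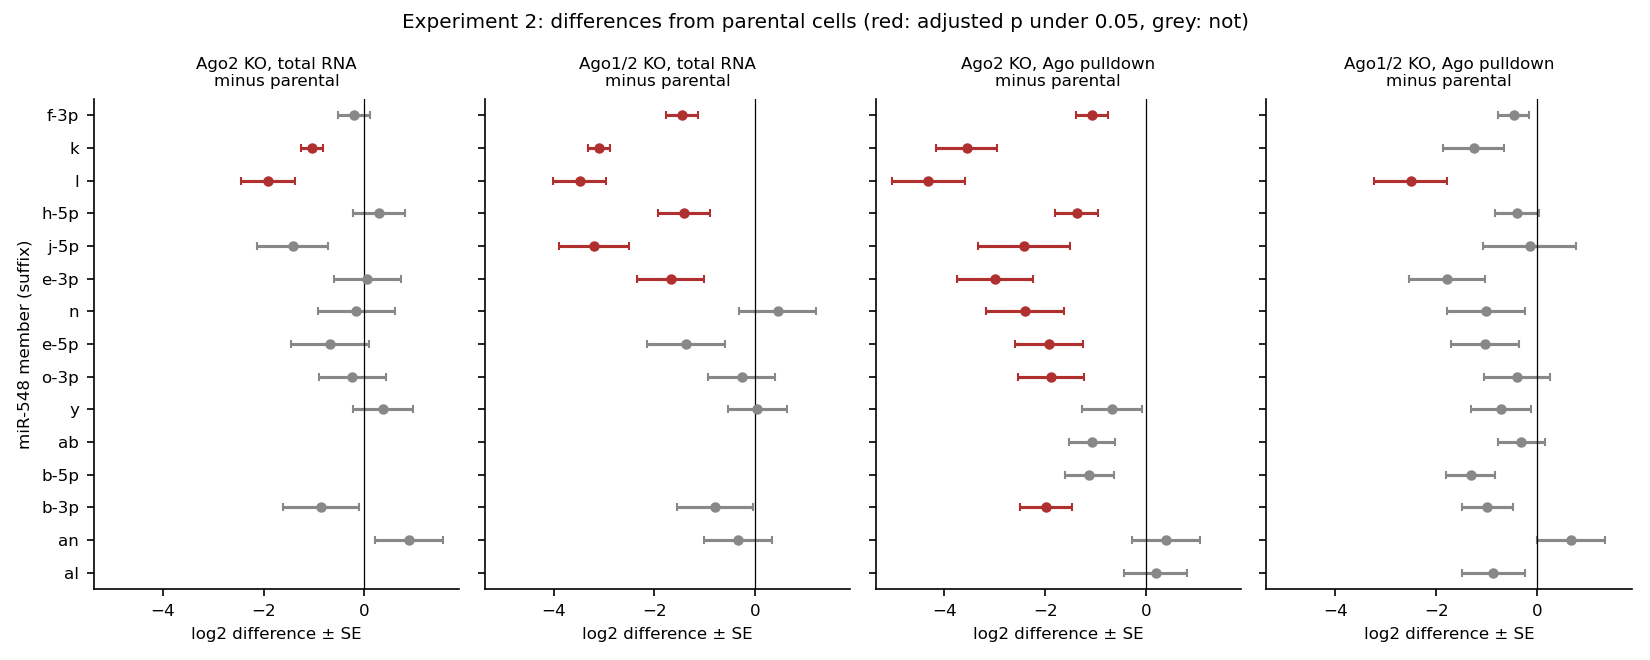
Log2 differences from parental cells with their SE for the members tested in experiment 2, in total RNA and pulldown of the Ago2 and Ago1/2 knock-out lines; red marks an adjusted p under 0.05 in limma. In total RNA 2 members are called in the Ago2 and 6 in the Ago1/2 knock-out, and in pulldown 10 and 1, all of them negative.

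The Ago1/2 and Ago2 knock-out lines were also compared directly; these tests were added after the data were seen. The genotypes of both lines are as labelled and could not be checked in these files. This bears on this comparison, on the interaction below and on the comparisons of each line with parental cells above. In total RNA 5 of 12 members were lower in the Ago1/2 line, where 14.4% of all names were: miR-548k (log2 -2.07, limma adjusted p = 4.9e-08), miR-548f-3p (-1.23, 0.0037), miR-548h-5p (-1.70, 0.012), miR-548l (-1.57, 0.024) and miR-548e-3p (-1.74, 0.046). In pulldown the library set labelled Ago1/2 was the higher one: miR-548k was higher there by 2.30 ± 0.60 (SE, limma adjusted p = 0.0089). It was the 1 member of 15 called, where 10.4% of all names were higher (15.1% with the replicate number as a block). Over the members tested the median was -1.22 in total RNA (-0.02 over all names) and 0.98 in pulldown (0.32 over all names). miR-548b-3p had 0 reads in the Ago2 pulldowns and a level of 1.65 ± 2.19 in the Ago1/2 pulldowns, and was not called (limma adjusted p = 0.18). Only 3 of the 6 Ago1/2 pulldown libraries had reads of it. Its mean there was 11.97 times the level of 3 reads, a ratio that leaves out the spread between libraries. The count in total RNA fell to 3 without the Ago1/2 mock replicate 2 or the Ago2 mock or dsGFPd replicate 2, and to 2 in edgeR and without the replicate 2 sets. The miR-548e-3p call was lost without any replicate 2 of either line or the Ago2 dsGFPc replicate 1 (up to 0.13), and the miR-548l call without the Ago1/2 dsGFPc replicate 1 or mock replicate 2 or any Ago2 replicate 2 (up to 0.072). In pulldown the count rose to 2 without the Ago2 mock replicate 1 or dsGFPd replicate 2, to 3 without dsGFPc replicate 2 of either line, and to 6 without the replicate 2 sets or with equal library sums, where the share of higher calls over all names went from 47.9% to 78.2% and the median of all names moved by 0.41.

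Whether the difference between these lines depended on the fraction was tested with an interaction term over 36 libraries. Of 17 members tested, 7 had a more positive signed difference (Ago1/2 minus Ago2) in pulldown than in total RNA, and none a more negative one. Over all names, 15.3% were called in that direction and 15.7% in the other. Such a term can come from a change of sign and does not say which fraction had the larger gap. The interaction was 4.36 ± 0.65 on the log2 scale for miR-548k (SE; limma adjusted p = 7.9e-07), 4.05 for miR-548j-5p (0.0072), 3.38 for miR-548l (0.0028), 2.94 for miR-548e-3p (0.020), 2.68 for miR-548h-5p (0.0010), 1.84 for miR-548f-3p (0.0014) and 1.75 for miR-548ab (0.041). The members' median was 1.52 against 0.25 over all names, and 0.68 over all names with equal library sums, where the share of higher calls went from 49.5% to 66.2%. miR-548k, miR-548l, miR-548h-5p and miR-548f-3p were also called by edgeR, and miR-548e-3p (0.16), miR-548j-5p (0.11) and miR-548ab (0.064) were not. Without the replicate 1 sets the count was 2. The miR-548ab call was lost without any 1 of 13 of the 24 libraries of the Ago lines (up to 0.078): all Ago1/2 replicate 1 libraries in both fractions, the Ago1/2 dsGFPd pulldown replicate 2, the Ago2 dsGFPc and dsGFPd total RNA libraries of both replicates, and the Ago2 mock and dsGFPd pulldown replicate 2.

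Other miRNAs from the same or other transposable elements were read beside the family. Of 5 arms of miR-570, miR-579 and miR-603, which also come from MADE1 copies, only miR-579-5p could be tested in experiment 2, and it went the other way. In total RNA it was 5.54 ± 5.39 in parental, 31.6 ± 19.3 in Ago2 and 56.8 ± 24.03 in Ago1/2 knock-out cells (log2 2.41, limma adjusted p = 0.00010, and 3.36, adjusted p = 2.5e-07). In pulldown it was 6.27 ± 1.90, 72.3 ± 29.4 and 24.2 ± 10.1 (log2 3.28 and 1.72, both called). Of 13 tested arms of miRNAs from other transposable elements, 1 was lower and 1 higher in Ago2 knock-out total RNA, 3 lower and 1 higher in Ago1/2 total RNA, and 3 lower and 1 higher in Ago2 pulldown, with medians of -0.06, -0.42 and -0.30. Over all names 5.86%, 19.7% and 20.5% were lower in these 3 comparisons. In the TRBP knock-out 2 of 12 such arms in total RNA and 1 of 15 in pulldown were higher, where 9.48% and 1.34% of all names were.

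The association with Ago was read from parental cells, pulldown against total RNA. In experiment 1 miR-548k went from 454 ± 62 in total RNA to 260 ± 46 in pulldown (SD, n = 6 each), and its libraries did not overlap (352 to 509 against 183 to 296). It fell by 0.81 ± 0.17 on the log2 scale (SE; limma adjusted p = 0.00057). miR-548e-5p was also lower, at 6.47 ± 2.81 against 17.4 ± 13.9 (log2 -1.11, adjusted p = 0.036), which makes 2 of 11 members lower and none higher, where 23.9% of all names were lower and 41.5% higher. Over the 11 members the median was -0.41 against 0.45 over all names. miR-548f-3p was 485 ± 127 against 355.5 ± 79.6, a difference of 0.43 that missed the threshold (adjusted p = 0.068). The miR-548e-5p call was lost without the parental mock total RNA replicate 1, dsGFPc total RNA replicate 2, mock pulldown replicate 1 or 2, dsGFPd pulldown replicate 1 or dsGFPc pulldown replicate 2 (up to 0.11), and without the filter on low values.

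In experiment 2, limma called 0 of 13 members between parental pulldown and total RNA, where 29.5% of all names were called; 0 had an unadjusted p under 0.05, and edgeR called 0. miR-548k was 270 ± 67 in total RNA and 264 ± 75 in pulldown (log2 -0.04), and miR-548f-3p 142 ± 36 and 203 ± 52 (0.51, adjusted p = 0.17). The members' median was 0.51 against 0.31 over all names. The count was 1 without the parental dsGFPd pulldown replicate 2, and 4 without both replicate 2 sets. Equal sums moved the median of all names by -0.23 and the share of higher calls from 73.7% to 63.1%. The difference between the experiments itself was not tested.

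**Figure D5:**
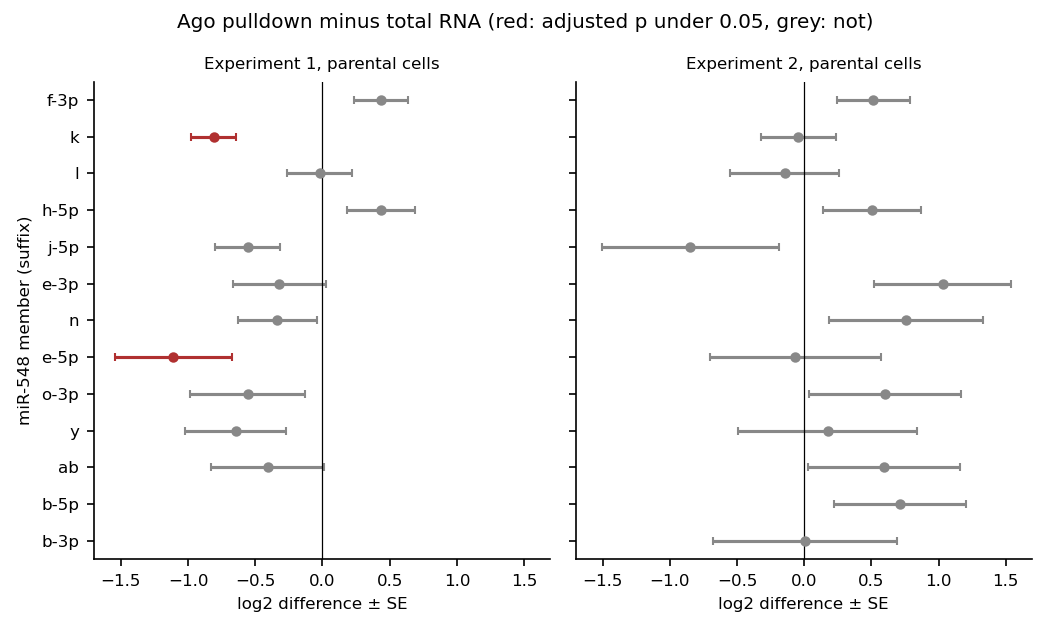
Log2 difference between Ago pulldown and total RNA of parental cells with its SE, for the members tested in each experiment; red marks an adjusted p under 0.05 in limma. In experiment 1 miR-548k (-0.81) and miR-548e-5p (-1.11) are lower in pulldown, and in experiment 2 no member is called.

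The Dicer knock-out libraries held few family reads: each total RNA library had 6 to 64, and each pulldown 5 to 124, on 2 to 8 members. In normalised counts the summed family was not lower in total RNA, at 605 ± 387 against 557 ± 112 in parental cells (SD, n = 6 each). In pulldown it was 294 ± 184 against 629 ± 126. Without miR-548f-3p and miR-548k the sum in total RNA was 403 ± 326 against 145 ± 32. In it, miR-548b-5p was 182 ± 165 against 1.25 ± 0.54. As a share of miRNA reads the whole family was 0.034% against 0.099% in total RNA and 0.015% against 0.096% in pulldown. Dicer cuts the hairpin that gives these miRNAs. miR-548f-3p had 1, 3, 2, 4, 9 and 0 reads in the 6 total RNA libraries, a level of 38.4 ± 31.6 against 142 ± 36 in parental cells (SD, n = 6 each). Each level there rests on a few reads, since 1 read was worth 4.86 to 32.5 units. miR-548k had 4, 13, 22, 10, 0 and 15 reads, a level of 163 ± 118 against 270 ± 67, and was not called (log2 -1.81, limma adjusted p = 0.15; in pulldown -2.48, adjusted p = 0.055).

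The test against the Dicer knock-out carries little for these members, because the filter fixed much of its direction. Of the 8 members tested in total RNA and 9 in pulldown, 0 reached 10 reads in 6 libraries without the parental ones. The members called lower are therefore given as values, and their number is not read as a result. In total RNA these were miR-548f-3p (log2 -2.62, limma adjusted p = 0.028), miR-548j-5p (-3.89, adjusted p = 0.0021) and miR-548e-3p, which had 0 reads and was at least 1.57-fold lower (adjusted p = 0.00020); all 3 reached 10 reads only in parental libraries. Over all names, chosen by the same filter, 29.3% were called lower in total RNA and 38.3% in pulldown.

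In pulldown the members called lower were miR-548f-3p, miR-548e-3p, miR-548e-5p, miR-548l, miR-548h-5p and miR-548n, and of these 1, miR-548f-3p, reached 10 reads in a Dicer knock-out library. miR-548e-5p had 0 reads and was at least 1.29-fold lower, and the other 5 had log2 differences of -2.95 to -3.37. The miR-548f-3p calls were lost without the filter on low values, in total RNA (adjusted p = 0.065) and in pulldown (0.059), and its difference in total RNA ranged from -3.04 to -1.72 without 1 library. In pulldown it was also lost without the Dicer knock-out mock replicate 1 or any parental library (up to 0.10), and miR-548l without the Dicer knock-out mock replicate 1 or dsGFPc replicate 2 (up to 0.060). Leaving out any 1 parental library left 0 or 1 member called in total RNA and 0 in pulldown, since fewer members then passed the filter. Equal sums moved the medians of all names by -1.37 and -1.33, and the share of higher calls from 46.9% to 19.8% and from 26% to 10.8%.

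One member was higher in total RNA. miR-548b-5p, the 5p arm of a hairpin read at mean levels of 0.20 to 2.98 in the other lines of experiment 2, had 0, 28, 16, 0, 15 and 20 reads in Dicer knock-out total RNA, a level of 182 ± 165 against 1.25 ± 0.54 in parental cells (log2 4.21, limma adjusted p = 0.015), where 25.9% of all names were higher. It passed the filter through 4 Dicer knock-out and 2 parental libraries. The 4 libraries with reads were those transfected with dsGFPc or dsGFPd, and both mock libraries had 0. The mock libraries were also the shallowest, with 39904 and 68301 miRNA reads against 161816 to 181166, so depth and transfection cannot be told apart in total RNA. In pulldown it had 20, 67 and 23 reads in the replicate 1 libraries (mock, dsGFPc and dsGFPd) and 0 in replicate 2, and was not called (limma adjusted p = 0.30). That mock pulldown library held 84090 miRNA reads. In total RNA, leaving out any 1 of the 4 Dicer knock-out or 2 parental libraries that carried it through the filter left it untested. In the other 6 leave-outs, its call was lost without the parental dsGFPc replicate 1 or 2 or dsGFPd replicate 2 (up to 0.061). The summed level of the 9 markers of other cell types was 357 to 2636 in Dicer knock-out total RNA and 18.6 to 31.5 in parental. It was led by the liver marker miR-122-5p (up to 2148). In pulldown the sum was 41.2 to 4659 against 24.1 to 81.8. Of the blood cell markers over experiment 2 total RNA, miR-223-3p was at 0 and miR-142-5p reached 488. The part of these markers in these results was not tested.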

How the data were processed

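Small RNA libraries were made with a Lexogen kit, per the labels' protocols; STAR and GRCh38 are named in the submitters' processing notes, and the versions are not given in the sources used here. The deposited table values are a signal: read counts that the authors divided by a factor per library, since 100% of values were whole multiples of 1 read within 0.01 read. From these the reads were recovered. Each table had 2883 rows; 231 repeated locus rows were set aside and 2652 mature names kept. A table of 24 further libraries was identical to that of experiment 2, and those libraries are not analysed here.

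Each fraction was fitted with limma 3.58.1 (R 4.3.3; trend, robust) on log2(value + 1), by line and transfection, for names with at least 10 reads in at least 6 libraries, with Benjamini-Hochberg adjustment over all names tested and a threshold of 0.05. Experiment 1 fits held 24 libraries. In experiment 2 the Ago lines were fitted over 18 libraries, without the Dicer knock-out, where 1 read is worth many units; the Dicer comparison and pulldown against total RNA each used 12. The effect of the double-stranded RNAs is an F test of both, with the mean of both as its direction. Alternatives were a pseudocount of 10, no filter, equal library sums, the replicate number as a block, edgeR 4.0.16 (quasi-likelihood, TMM) on recovered reads, and leaving out libraries. Of 48 replicate pairs, 0 were identical, with a chi-square per degree of freedom of 7.27 or more. Replicate numbers come from the labels. In experiment 2 pulldown without the Dicer knock-out, same-numbered libraries deviated together in 36 of 36 pairs of groups (correlation 0.106 to 0.61, median 0.297). Among the parental and Dicer knock-out pulldown groups, the correlation was over 0.1 in 5 of 15 pairs (-0.021 to 0.52). Scripts were tested on simulated data.

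The members and lists were chosen with earlier results of these data known. Members named are those called in a comparison (up to 10 per direction) and the 10 with the highest mean in parental total RNA and in parental pulldown. Of 23 comparisons, 3 (Ago1/2 against Ago2 knock-out) were added after the data were seen. Figures used matplotlib 3.10.9. Levels at 0 are set against a floor of 3 reads over the group, which covers counting error only.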

Additional observations from a re-analysis of the deposited data

Results flagged for a closer look

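In 5 of 157 groups of 6 libraries, 1 library stood apart from the other 5 by the gap at the end of the range. Chance flags about 1 in 20 groups. miR-548f-3p was 926 in the TRBP knock-out mock total RNA replicate 1 of experiment 1, against 600 to 712 in the other libraries of that line. miR-548l was 130 in the PACT knock-out dsGFPd total RNA replicate 1 (others 46.9 to 75.5). In the TRBP knock-out dsGFPc pulldown replicate 2, miR-548l was 17.6 (others 43.0 to 55.3) and miR-548e-5p was 26.2 (others 8.81 to 13.9). miR-548b-5p was 5.47 in the PACT, TRBP knock-out mock pulldown replicate 2 (others 1.20 to 2.73).

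The signed difference, Ago1/2 minus Ago2 knock-out, was more positive in pulldown than in total RNA for 7 members by the limma interaction test. These were miR-548k (4.36 on the log2 scale), miR-548j-5p (4.05), miR-548l (3.38), miR-548e-3p (2.94), miR-548h-5p (2.68), miR-548f-3p (1.84) and miR-548ab (1.75). For miR-548k the difference itself was -2.07 in total RNA and 2.30 in pulldown, so its sign changed. The interaction does not say which fraction had the larger gap.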

How the results depend on the processing

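Of 115 counts of called members under other settings, 101 stayed within 1.5 times the main count. The 14 that moved were these. Without the filter on low values the count was 1 for the double against the TRBP knock-out in total RNA, 0 for double-stranded RNA in experiment 1 total RNA, 3 for Ago1/2 against Ago2 in total RNA, 0 for Ago1/2 pulldown and 1 for parental pulldown against total RNA in experiment 1. With equal library sums these were 1 for the double against the TRBP knock-out in total RNA, 2 and 1 for double-stranded RNA in total RNA of experiments 1 and 2, 2 for the TRBP knock-out pulldown and 6 for Ago1/2 against Ago2 in pulldown. In edgeR they were 2 for double-stranded RNA in experiment 1 total RNA, 2 for Ago1/2 against Ago2 in total RNA, 5 for Ago2 pulldown and 0 for Ago1/2 pulldown. Of 250 member calls under these settings 215 were kept, 35 lost and 0 reversed. Of 642 without 1 library 555 were kept, 87 lost and 0 reversed. These 642 cover only the cases in which the member still passed the filter. Most Dicer knock-out calls had 6 such cases of 12. In their other cases the member was no longer tested, which is not counted among the 87.

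With libraries or a replicate number left out, counts ranged as follows in experiment 1 total RNA: 0 to 1 (double knock-out), 1 to 2 (double against TRBP) and 0 to 2 (double-stranded RNA). In its pulldown they ranged from 1 to 2 (TRBP) and 0 to 1 (double-stranded RNA). In experiment 2 total RNA they were 1 to 2 (Ago2), 4 to 6 (Ago1/2), 2 to 5 (Ago1/2 against Ago2), 0 to 1 (double-stranded RNA) and 0 to 4 (Dicer). In its pulldown they were 3 to 10 (Ago2), 0 to 1 (Ago1/2), 1 to 6 (Ago1/2 against Ago2) and 0 to 8 (Dicer). Parental pulldown against total RNA gave 1 to 3 and 0 to 4, and the interaction 2 to 7. The log2 difference of miR-548e-3p between Ago1/2 and Ago2 in total RNA ranged from -3.48 without replicate 1 to 0.0037 without replicate 2. The cause was not tested. Leaving out a replicate number gave no value for the Dicer knock-out in total RNA.

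The replicate block, where numbers pair the libraries (experiment 2 pulldown without the Dicer knock-out), left the counts at 10, 1, 1 and 0 and changed no member's call. Over all names it moved the lower calls from 154 to 188 in Ago2 pulldown and from 17 to 32 in Ago1/2 pulldown. The higher calls of Ago1/2 against Ago2 in pulldown went from 78 to 113. The double-stranded RNA calls went from 3 to 8 higher and from 0 to 1 lower. In the other fits the median correlations were 0.023 to 0.074. Single pairs of groups reached 0.52 in the Dicer pulldown fit and 0.49 in parental pulldown against total RNA of experiment 2. There the block moved no count of members by over 1.5 times, and the Dicer pulldown went from 6 to 7. Depth limits members under about 10 reads per library, and the Dicer knock-out throughout.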
